A study of Mus musculus with 6 samples.

Results

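The expression of 32 endothelial identity genes was examined in adipocyte preparations from mouse fat. The genes were listed by symbol, and all 32 were found among the 17720 genes of the array. Where a gene had several probe sets, the brightest on average was read. Bone marrow progenitor-derived adipocytes were collected by flow sorting, through their donor marker, from the buoyant fat-cell layer of gonadal fat in recipients of bone marrow transplants. They were measured on 2 arrays, one from donors expressing green fluorescent protein (the GFP array, replicate 1) and one from donors expressing beta-galactosidase (the LacZ array, replicate 2), whose activity was detected with a fluorogenic substrate. They were set against gonadal white adipocytes (2 arrays) and intrascapular brown adipocytes (2 arrays). The labels do not say whether the white and brown cells came from transplanted mice. Strain, sex, age and the promoters driving GFP and LacZ are not given in the sources used here. Tissue was digested with collagenase, about 5000 cells were taken per sort, at least 6 sorts were pooled per array, and the RNA was amplified.

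Endothelial cells line blood and lymphatic vessels. They are held together by junction proteins such as VE-cadherin and claudin-5, and they respond to vascular endothelial growth factors (VEGFs) and angiopoietins through receptor tyrosine kinases. Transcription factors of the ETS and SOX families keep their identity. Fat is densely supplied with capillaries, and brown fat more so than white. Some of the genes are used to mark particular states or vessels: Esm1 sprouting tip cells, Plvap fenestrated or permeable capillaries, Vwf veins and larger vessels, and Prox1 and Lyve1 lymphatic vessels. A few, among them Pecam1, Icam2, Vwf and Lyve1, are also known from platelets or leukocytes.

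The endothelial genes were far higher in marrow-derived than in white adipocytes, and most of them stood at closer levels in marrow-derived and brown adipocytes. Values are log2 expression, so a difference of 1 is 2-fold. In marrow-derived against white arrays, 29 of the 32 genes were called higher (limma, adjusted p under 0.05) and 0 lower, with a median log2 difference of 3.57. Over all genes 12.2% were called higher and 13.6% lower in that comparison, and the median difference was -0.07. In marrow-derived against brown arrays 5 of the 32 genes, or 15.6%, were called higher and 0 lower, where 8.71% of all genes were called higher and 11.7% lower. Their median difference there was 0.95, against 0.02 over all genes. In white against brown arrays 24 of the 32 genes were called lower and 0 higher, where 5.34% of all genes were called lower and 3.87% higher, and the median difference was -2.73. At an unadjusted p under 0.05, the same 3 comparisons gave 30 genes higher, 11 higher and 27 lower, with 0 in the opposite direction in each. The shares of all genes at that threshold and in those directions were 18.1%, 17.5% and 13.3%.

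Leaving out 1 array at a time gave median differences of the 32 genes between 3.14 and 4.09 against white arrays. The counts of calls in the other comparisons changed with single arrays, and so did the counts over all genes. Without moderation of the variances across genes, 2 of the 32 genes were called against white arrays. Against brown arrays Pcdh17, Vwf and Erg lost their calls without the LacZ array (differences 2.14, 2.26 and 1.13), while Lyve1 was newly called (4.37). Fewer calls were left without brown replicate 1 or 2, where the median differences of the 32 genes were 1.18 and 0.67. In white against brown arrays the median difference of the 32 genes was -2.35 without white replicate 2. It was -2.60 without brown replicate 1 and -2.96 without brown replicate 2.

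Both marrow-derived arrays lay above both white arrays for 30 of the 32 genes (28.5% of all genes) and below them for 1, Prox1 (35.8% of all genes). They lay above both brown arrays for 23 genes (33.0% of all genes). Both white arrays lay below both brown arrays for 28 genes (29.7% of all genes) and above them for 2, Esm1 and Lyve1 (32.4% of all genes). Averaged over the 32 genes, the GFP value was 10.67 and the LacZ value 11.12, against 7.86 and 7.04 on the white arrays and 9.92 and 9.66 on the brown arrays. In these pooled samples, more endothelial cells or fragments in the sort and more of these RNAs per cell cannot be told apart.

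**Figure D1:**
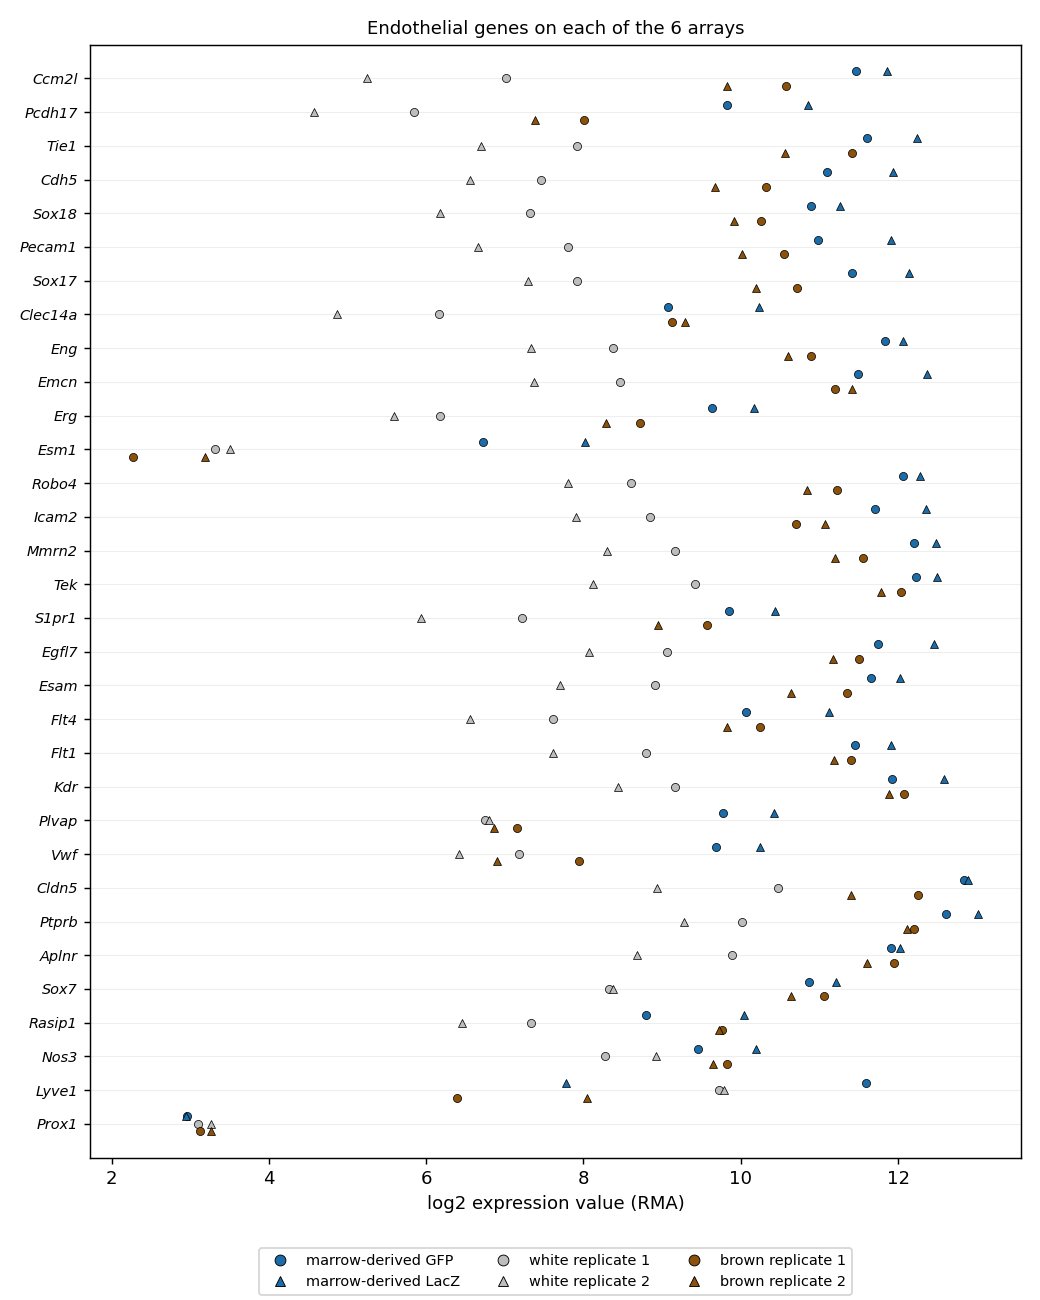
Log2 expression value of each of the 32 endothelial genes (1 line per gene, ordered by the marrow-derived minus white difference) on the 6 arrays; circles are replicate 1 (GFP for marrow-derived) and triangles replicate 2 (LacZ). For 30 genes both marrow-derived points lie right of both white points, while Esm1, Plvap and Vwf are the genes whose brown points lie close to the white points and well below the marrow-derived ones.

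All 6 arrays carried adipocyte RNA, and most smooth muscle and pericyte genes were also higher in marrow-derived than in white arrays. Adiponectin (Adipoq) had 12.70 and 11.86 in marrow-derived arrays (GFP and LacZ), against 13.22 and 13.24 in white and 13.01 and 13.15 in brown arrays. Pparg, the master regulator of adipogenesis, had 11.56 and 11.81 in marrow-derived arrays, against 11.63 and 12.01 in white and 11.88 and 11.93 in brown arrays. Of 9 measured adipocyte genes 4 were called lower in marrow-derived than in white arrays (13.6% of all genes were called lower) and 0 higher. They were the leptin gene Lep (-2.67 ± 0.21), the lipid droplet genes Plin4 (-2.55 ± 0.54) and Cidec (-1.76 ± 0.44) and the lipase Lipe (-1.90 ± 0.23). Of 7 brown adipocyte genes 2 were called lower than in white arrays, Ppargc1a (-3.31) and Ppara (-1.69). Against brown arrays 7 of 7 were called lower (11.7% of all genes).

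Of 10 smooth muscle and pericyte genes 8 were called higher than in white arrays, where 12.2% of all genes were called higher and 13.6% lower. The largest differences were in the smooth muscle myosin Myh11 (3.93 ± 0.34), the potassium channel genes Abcc9 (3.71 ± 0.51) and Kcnj8 (3.39 ± 0.43) and the Notch receptor Notch3 (3.26 ± 0.37). The mean over these 10 was 10.76 and 11.31 in marrow-derived arrays, against 8.89 and 8.40 in white and 9.51 and 9.22 in brown arrays. The pericyte regulator Rgs5 differed by 2.06 ± 0.34 (standard error, SE) from white arrays (adjusted p = 0.0129) and Pdgfrb, the pericyte growth factor receptor, by 3.15 ± 0.53 (adjusted p = 0.0134). In white against brown arrays 2 of the 10 were called lower and 1 higher (5.34% and 3.87% of all genes). The smooth muscle actin gene Acta2, chosen after its values were seen, had 11.09 and 12.11 in marrow-derived arrays, against 11.40 and 11.94 in white and 9.09 and 8.89 in brown arrays. Myh11 had 9.73 and 10.55 in marrow-derived arrays, against 6.11 and 6.32 in white and 6.82 and 6.30 in brown arrays. The part of these cells in the endothelial difference was not tested. Of 12 macrophage genes 0 were called against white arrays by limma (1 higher and 0 lower at an unadjusted p under 0.05). Their mean was 11.22 and 8.89 in marrow-derived, 11.21 and 9.86 in white and 8.81 and 8.28 in brown arrays. Of 10 fibroblast and fat progenitor genes 1 was called higher, Thy1 (3.25 ± 0.34), and 1 lower, Dpt (-1.68 ± 0.31), and of 6 mesothelial genes 0 were called against white arrays (0 at an unadjusted p under 0.05).

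Of 12 megakaryocyte and platelet genes 1, or 8.33%, was called higher than in white arrays, where 12.2% of all genes were. It was the platelet chemokine Ppbp (7.39 and 6.71 in marrow-derived against 4.88 and 5.24 in white arrays). Some others of the list lay between 2.40 and 3.06 on all 6 arrays, near background, and could hardly be called. The platelet integrin gene Itga2b had 5.96 and 6.83 in marrow-derived and 5.98 and 5.90 in white arrays, with the GFP value among the white ones. The platelet factor gene Pf4, also expressed by macrophages, had 12.82 and 10.31 in marrow-derived and 12.11 and 11.50 in white arrays.

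**Figure D2:**
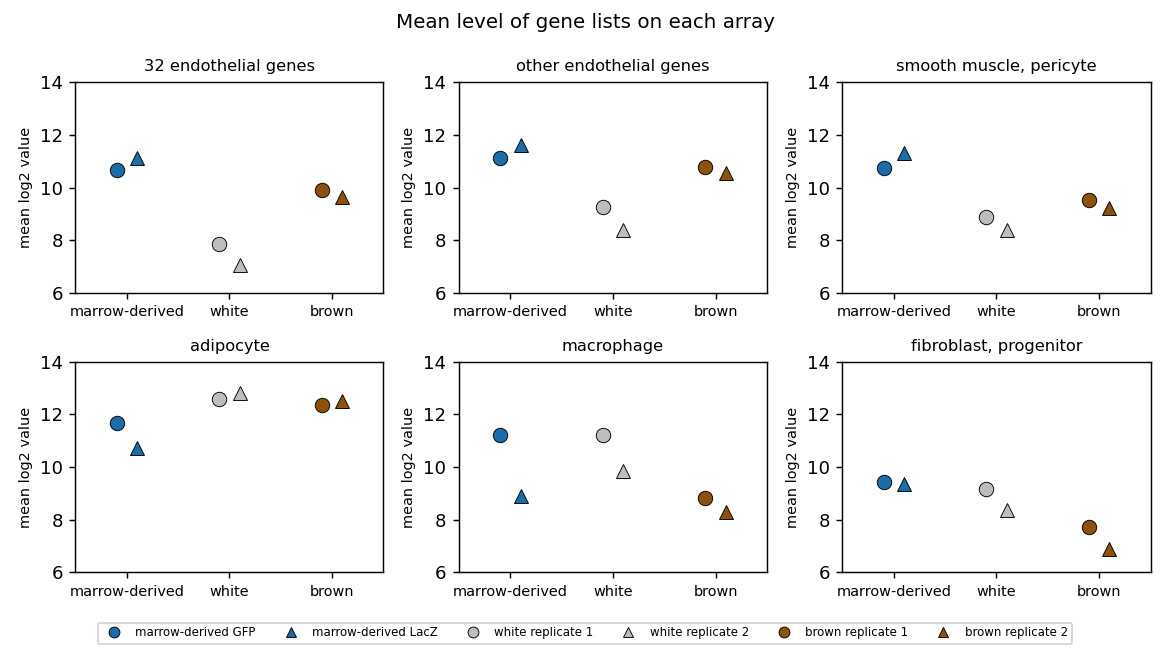
Mean log2 value of 6 gene lists on each array, with marrow-derived, white and brown arrays from left to right (circles replicate 1 or GFP, triangles replicate 2 or LacZ). The 32 endothelial genes run from 7.04 on white replicate 2 to 11.12 on the LacZ array, and the smooth muscle and pericyte list has the same order of groups, whereas the macrophage list is higher on the GFP array (11.22) than on the LacZ array (8.89).

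Genes of endothelial junctions and the cell surface were called higher against white arrays in 12 of 12 cases (12.2% of all genes), by 2.52 to 5.53. Cdh5, which encodes VE-cadherin, the adhesion molecule of adherens junctions, had 11.10 and 11.94 in marrow-derived arrays, against 7.46 and 6.56 in white and 10.32 and 9.67 in brown arrays. The 3 groups did not overlap, with white lowest. It was 22.8-fold higher than in white arrays (4.51 ± 0.45, adjusted p = 0.00474), while the difference from brown arrays was 1.52 ± 0.45 (adjusted p = 0.0705). The platelet and endothelial adhesion molecule Pecam1 had 10.98 and 11.91 in marrow-derived arrays, against 7.80 and 6.66 in white and 10.55 and 10.02 in brown arrays. It was 18.6-fold higher than in white arrays (4.22 ± 0.50, adjusted p = 0.00659). Claudin-5 (Cldn5), of tight junctions, had 12.84 and 12.89 in marrow-derived arrays, against 10.47 and 8.93 in white and 12.25 and 11.40 in brown arrays. White replicate 1 lay well above white replicate 2 here, and the white against brown difference missed the threshold (-2.12 ± 0.56, adjusted p = 0.0802).

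Esam, another tight junction-associated adhesion molecule, had 11.66 and 12.02 in marrow-derived arrays, against 8.91 and 7.70 in white and 11.35 and 10.64 in brown arrays. Icam2, a leukocyte ligand at endothelial junctions, had 11.71 and 12.35 in marrow-derived arrays, against 8.85 and 7.91 in white and 10.70 and 11.07 in brown arrays. Both were high in marrow-derived and brown arrays and low in white ones, with differences from white of 3.54 ± 0.47 and 3.64 ± 0.39. Endomucin (Emcn), a sialoglycoprotein of capillaries and veins, had 11.49 and 12.37 in marrow-derived arrays, against 8.46 and 7.37 in white and 11.20 and 11.41 in brown arrays. Ptprb, the phosphatase VE-PTP that restrains Tie2 and VE-cadherin signalling, had 12.61 and 13.02 in marrow-derived arrays, against 10.02 and 9.28 in white and 12.20 and 12.12 in brown arrays. The surface lectin-like protein gene Clec14a had 9.08 and 10.23 in marrow-derived arrays, against 6.16 and 4.87 in white and 9.13 and 9.29 in brown arrays. Its GFP value fell just under the brown ones on this probe set. On the other probe set of Clec14a, marrow-derived arrays (9.14 and 9.97) lay above brown arrays (8.84 and 8.43). The partner of Clec14a in the vessel matrix, Mmrn2, had 12.20 and 12.48 in marrow-derived arrays, against 9.16 and 8.30 in white and 11.55 and 11.20 in brown arrays. The differences of these 4 genes from white were 4.02 ± 0.46, 3.16 ± 0.30, 4.14 ± 0.55 and 3.61 ± 0.33, with adjusted p between 0.0041 and 0.00803.

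Ccm2l had the largest difference of the 32 genes from white arrays. This relative of the cerebral cavernous malformation gene Ccm2 had 11.46 and 11.86 in marrow-derived arrays, against 7.02 and 5.25 in white and 10.58 and 9.83 in brown arrays. It was 46-fold higher than in white arrays (5.53 ± 0.62, adjusted p = 0.00592). Protocadherin 17 (Pcdh17) came next, with 9.83 and 10.85 in marrow-derived arrays, against 5.84 and 4.58 in white and 8.01 and 7.38 in brown arrays. Its groups stood apart in 3 steps, and it was called higher than both white (5.13 ± 0.55, adjusted p = 0.00556) and brown (2.65 ± 0.55, adjusted p = 0.0296). Ccm2l and Pcdh17 had been among the genes with the largest rises of the whole array in an earlier look at these data, so their place in the list is not independent of it. Rasip1, a regulator of small GTPases needed for vessel lumens, differed least in this group, with 8.79 and 10.04 in marrow-derived arrays, against 7.33 and 6.46 in white and 9.76 and 9.72 in brown arrays. Its difference from white was 2.52 ± 0.49 (adjusted p = 0.0198), and it was no longer called without white replicate 2 (2.08, adjusted p = 0.0883) or without either brown array (adjusted p = 0.0587).

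All 9 receptors were called higher in marrow-derived than in white arrays (12.2% of all genes), by 2.69 to 4.60. In marrow-derived against brown arrays 0 of 9 were called (limma, 2 higher at an unadjusted p under 0.05). Over all genes 8.71% were called higher and 11.7% lower there. Kdr, the main signalling receptor for VEGF-A, had 11.93 and 12.58 in marrow-derived arrays, against 9.16 and 8.44 in white and 12.07 and 11.88 in brown arrays. Marrow-derived and brown values interleaved, and both white values lay below them. The difference from white was 3.45 ± 0.34 (adjusted p = 0.00448) and from brown 0.28 ± 0.34 (adjusted p = 0.59). Flt1, the high-affinity decoy receptor for VEGF-A and placental growth factor, had 11.45 and 11.91 in marrow-derived arrays, against 8.80 and 7.61 in white and 11.40 and 11.18 in brown arrays. Flt4, the receptor for VEGF-C and VEGF-D, had 10.07 and 11.12 in marrow-derived arrays, against 7.61 and 6.56 in white and 10.24 and 9.82 in brown arrays. Their differences from white were almost the same as that of Kdr, at 3.48 ± 0.42 and 3.51 ± 0.49, and their differences from brown were 0.39 ± 0.42 (adjusted p = 0.542) and 0.56 ± 0.49 (adjusted p = 0.46).

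Both Tie receptors were called higher than in white arrays. Tek (Tie2), which binds the angiopoietins, had 12.23 and 12.49 in marrow-derived arrays, against 9.42 and 8.12 in white and 12.04 and 11.78 in brown arrays. Tie1, its partner without a firmly known ligand of its own, had 11.60 and 12.24 in marrow-derived arrays, against 7.92 and 6.70 in white and 11.41 and 10.56 in brown arrays. Tie1 was 24.3-fold higher than in white arrays (4.60 ± 0.52, adjusted p = 0.00599) and Tek 12-fold (3.59 ± 0.44, adjusted p = 0.00691). Endoglin (Eng), a co-receptor for TGF-beta family ligands, had 11.83 and 12.06 in marrow-derived arrays, against 8.37 and 7.33 in white and 10.89 and 10.60 in brown arrays. The Slit family receptor relative Robo4, which stabilises vessels, had 12.06 and 12.28 in marrow-derived arrays, against 8.60 and 7.81 in white and 11.22 and 10.84 in brown arrays. Both stood in 3 separate steps, with differences from brown of 1.20 ± 0.37 (adjusted p = 0.0765) and 1.14 ± 0.31 (adjusted p = 0.0582) that just missed the threshold. The apelin receptor Aplnr had 11.91 and 12.03 in marrow-derived arrays, against 9.89 and 8.68 in white and 11.95 and 11.60 in brown arrays, and S1pr1, a receptor for sphingosine 1-phosphate that keeps the barrier closed, had 9.85 and 10.44 in marrow-derived arrays, against 7.22 and 5.94 in white and 9.57 and 8.95 in brown arrays. On the probe set read, Aplnr overlapped between marrow-derived and brown arrays (0.20 ± 0.41, adjusted p = 0.767). The other probe set of Aplnr had 11.59 and 12.24 in marrow-derived arrays, against 8.55 and 7.66 in white and 10.52 and 10.46 in brown arrays. There the marrow-derived and brown values did not overlap.

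Of 5 transcription factors 4 were called higher than in white arrays (12.2% of all genes). Erg, an ETS factor that maintains endothelial identity, had 9.64 and 10.17 in marrow-derived arrays, against 6.18 and 5.59 in white and 8.72 and 8.29 in brown arrays. It was 16.2-fold higher than in white arrays (4.02 ± 0.31, adjusted p = 0.00358) and was also called against brown (1.40 ± 0.31, adjusted p = 0.0347). The second probe set of Erg had 8.05 and 9.40 in marrow-derived arrays, against 5.74 and 5.46 in white and 8.14 and 8.20 in brown arrays. With the median of both probe sets the difference from brown was 0.98 and not called (adjusted p = 0.111). The 3 SOXF factors, which act together in vessel development, were all called higher than in white arrays. Sox17, a factor of arterial endothelium, had 11.41 and 12.14 in marrow-derived arrays, against 7.92 and 7.29 in white and 10.72 and 10.20 in brown arrays. Sox18 had 10.90 and 11.26 in marrow-derived arrays, against 7.32 and 6.18 in white and 10.26 and 9.91 in brown arrays, and Sox7 had 10.87 and 11.21 in marrow-derived arrays, against 8.33 and 8.37 in white and 11.06 and 10.64 in brown arrays. The differences from white were 4.17 ± 0.37 for Sox17, 4.33 ± 0.41 for Sox18 and 2.69 ± 0.22 for Sox7, all with adjusted p of 0.0043 or less. From brown arrays Sox7 differed by 0.19 ± 0.22 (adjusted p = 0.582) and Sox17 by 1.31 ± 0.37 (adjusted p = 0.0611). With the median of the Sox17 probe sets its difference from brown was 1.75 and called (limma, adjusted p = 0.0364). Prox1, the lymphatic master regulator, had 2.96 and 2.95 in marrow-derived arrays, against 3.10 and 3.26 in white and 3.13 and 3.26 in brown arrays. All 6 values lay between the 15.4 and 20.8 percentiles of all probe sets of their array, near background, so no level difference can be read from them.

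The start regions of 4 of these genes are shown because Tie1 and Robo4 followed the list as a whole, while Esm1 and Pcdh17 were also called against brown arrays. Sequences are from RefSeq (GRCm38.p6), 250 bases before to 50 after an annotated start, 5′ to 3′ on the gene's strand, and capitals mark the ETS core CAGGAA or its reverse complement TTCCTG. Tie1 lies on the minus strand at chr4:118489800-118490099, Robo4 on the plus strand at chr9:37401722-37402021, Esm1 on the plus strand at chr13:113209409-113209708 and Pcdh17 on the plus strand at chr14:84443313-84443612.
Tie1: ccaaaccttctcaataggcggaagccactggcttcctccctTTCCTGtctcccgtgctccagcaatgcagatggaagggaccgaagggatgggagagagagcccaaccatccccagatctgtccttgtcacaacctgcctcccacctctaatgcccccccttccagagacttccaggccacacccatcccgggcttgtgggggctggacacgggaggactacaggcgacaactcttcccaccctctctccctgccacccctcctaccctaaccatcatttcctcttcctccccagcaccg
Robo4: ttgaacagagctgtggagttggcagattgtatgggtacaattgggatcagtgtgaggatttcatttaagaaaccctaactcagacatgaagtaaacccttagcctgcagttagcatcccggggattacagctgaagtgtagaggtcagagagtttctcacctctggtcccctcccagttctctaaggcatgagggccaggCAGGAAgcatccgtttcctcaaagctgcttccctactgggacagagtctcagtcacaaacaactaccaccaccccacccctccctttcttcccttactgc
Esm1: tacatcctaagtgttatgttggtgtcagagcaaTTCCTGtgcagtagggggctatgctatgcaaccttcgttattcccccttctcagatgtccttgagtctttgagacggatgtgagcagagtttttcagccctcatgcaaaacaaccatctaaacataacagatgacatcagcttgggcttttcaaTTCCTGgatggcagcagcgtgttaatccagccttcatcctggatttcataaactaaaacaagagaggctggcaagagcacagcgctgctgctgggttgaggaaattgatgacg
Pcdh17: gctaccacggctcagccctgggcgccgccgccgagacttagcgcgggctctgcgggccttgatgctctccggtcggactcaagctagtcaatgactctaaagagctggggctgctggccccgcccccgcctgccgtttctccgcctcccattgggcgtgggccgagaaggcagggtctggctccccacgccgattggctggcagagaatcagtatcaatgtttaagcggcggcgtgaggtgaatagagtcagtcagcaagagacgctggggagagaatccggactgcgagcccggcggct
The search found CAGGAA once in Tie1 and Robo4, 2 times in Esm1 and 0 times in Pcdh17. Promoters of 16 of the 32 genes matched by symbol. On either strand CAGGAA was found in 10 of these 16 genes, against 33.4% of the 27025 genes in the promoter table. The other ETS core searched, CCGGAA, was found in 1 of 16 (Kdr), against 16.7% of all genes, and the SOX core ACAAT in 5 of 16, against 34.4%. The GATA core AGATAA was found in 2 of 16 (12.7% of all genes) and the FOX core GTAAACA in 0 of 16 (4.1% of all genes). The 2 ETS cores cannot match the same bases, other overlaps between motifs were not removed, and the 16 genes had 21 start regions between them. A match says only that the letters are present.

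The secreted and functional genes split into those that followed the list and those that did not. Egfl7, a matrix protein secreted by endothelium, followed it, with 11.75 and 12.46 in marrow-derived arrays, against 9.06 and 8.07 in white and 11.50 and 11.17 in brown arrays. Its difference from white was 3.54 ± 0.41 (adjusted p = 0.00636). Esm1 (endocan), a proteoglycan secreted by sprouting tip cells, had 6.72 and 8.02 in marrow-derived arrays, against 3.32 and 3.51 in white and 2.27 and 3.19 in brown arrays. Both white and both brown values lay near background, and only the marrow-derived arrays stood clear of it. The difference was 3.96 ± 0.51 from white (adjusted p = 0.00772) and 4.65 ± 0.51 from brown (adjusted p = 0.00639). The size of a difference from values near background is uncertain. Plvap, which forms the diaphragms of fenestrae and caveolae, had 9.78 and 10.42 in marrow-derived arrays, against 6.75 and 6.80 in white and 7.15 and 6.86 in brown arrays. It was 10-fold higher than in white arrays (3.33 ± 0.26, adjusted p = 0.00358) and 8.55-fold higher than in brown arrays (3.10 ± 0.26, adjusted p = 0.00379).

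Von Willebrand factor (Vwf), which tethers platelets, had 9.69 and 10.24 in marrow-derived arrays, against 7.18 and 6.42 in white and 7.95 and 6.90 in brown arrays. White and brown values overlapped, and both marrow-derived values lay above them (3.17 ± 0.46 from white, adjusted p = 0.0095, and 2.54 ± 0.46 from brown, adjusted p = 0.0203). The endothelial nitric oxide synthase Nos3 had 9.46 and 10.20 in marrow-derived arrays, against 8.28 and 8.92 in white and 9.82 and 9.65 in brown arrays. Its difference from white, 1.22 ± 0.34, was smaller than those of the 29 called genes and just missed the threshold (adjusted p = 0.0513), with adjusted p = 0.0303 without the GFP array. The hyaluronan receptor Lyve1, known from lymphatic endothelium and from tissue macrophages, had 11.59 and 7.78 in marrow-derived arrays, against 9.73 and 9.79 in white and 6.39 and 8.05 in brown arrays. The GFP array was the highest of the 6 and the LacZ array lay below both white arrays. Macrophage genes also differed between the marrow-derived arrays. Adgre1, the F4/80 antigen, had 11.79 and 8.48 in marrow-derived arrays, against 11.70 and 9.58 in white and 8.81 and 7.26 in brown arrays. The macrophage growth factor receptor Csf1r had 13.08 and 10.97 in marrow-derived arrays, against 12.69 and 11.57 in white and 10.70 and 9.79 in brown arrays, and the leukocyte antigen gene Ptprc had 10.87 and 7.62 in marrow-derived arrays, against 10.89 and 8.80 in white and 8.36 and 7.32 in brown arrays. Their part in the Lyve1 values was not tested. Its difference from white was -0.08 ± 1.28 (adjusted p = 0.975) and turned to 1.82 without the LacZ array, and its difference from brown was 2.47 ± 1.28 (adjusted p = 0.232), called at 4.37 without that array (adjusted p = 0.0244).

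Set against brown arrays, the 5 called genes were Esm1, Plvap, Pcdh17, Vwf and Erg. Esm1 lay 3.70 log2 units above the median difference of the 32 genes in that comparison, Plvap 2.15, Pcdh17 1.70, Vwf 1.59 and Erg 0.45. Lyve1 lay 1.52 above it and was not called. At the other end Rasip1 lay 1.27 units below the median, where its own difference was -0.32 ± 0.49 (adjusted p = 0.675). Of the remaining 27 genes 25 had a positive difference, and Rasip1 and Prox1 a negative one. Genes of other cell types were also called in this comparison, where 8.71% of all genes were called higher and 11.7% lower. Of 10 smooth muscle and pericyte genes 4 were called higher and 0 lower (median difference 1.63). Of 6 mesothelial genes 4 were called higher and 0 lower (median difference 2.60), and of 10 fibroblast and fat progenitor genes 5 were called higher and 1 lower (median difference 2.42). Their part in the endothelial differences was not tested. Several further genes lay near the threshold, among them Robo4 (adjusted p = 0.0582) and Sox17 (adjusted p = 0.0611). A gene that missed it is not thereby shown to stand at the same level in marrow-derived and brown arrays. With the median of each gene's probe sets, limma called 6 of the 32 genes higher, and 1503 over all genes. Sox17 and Mmrn2 (1.52, adjusted p = 0.04) were then called and Erg was not.

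**Figure D3:**
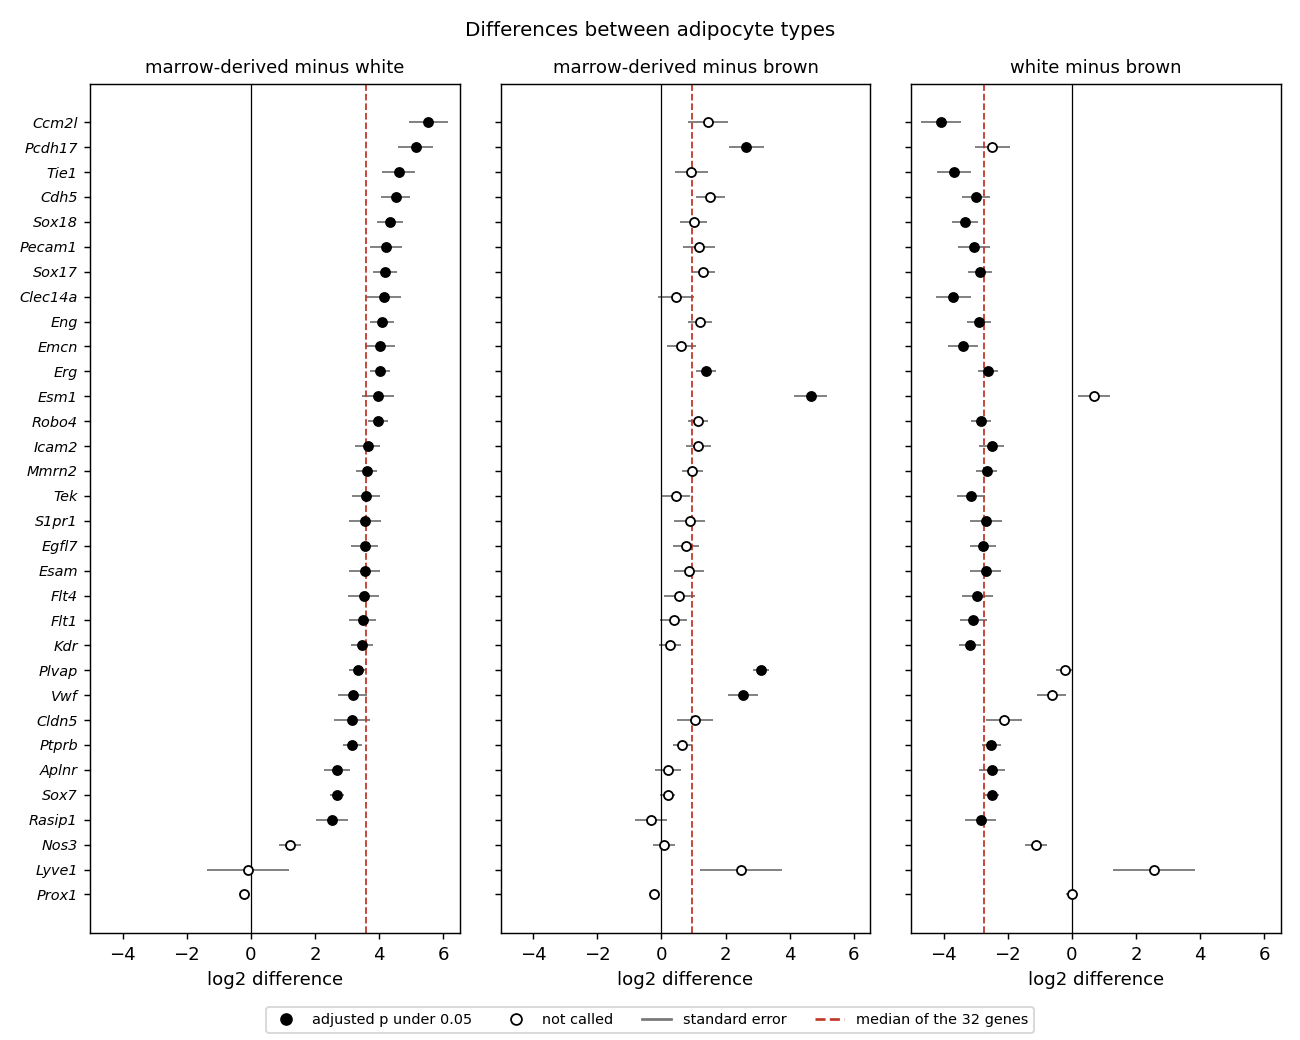
Log2 difference with its standard error for each of the 32 genes in the 3 comparisons, in the gene order of the plot of values by array; filled points were called, and the dashed line is the median of the 32 genes (3.57, 0.95 and -2.73). Esm1, Plvap and Vwf lie near the median in marrow-derived minus white but far right of it in marrow-derived minus brown, and near 0 in white minus brown.

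In white against brown arrays, limma called lower 10 of 12 junction and surface genes, 9 of 9 receptors, 4 of 5 transcription factors and 1 of 6 secreted and functional genes. Over all genes 5.34% were called lower and 3.87% higher there. The largest differences were in Ccm2l (-4.07 ± 0.62, adjusted p = 0.0215), Clec14a (-3.69 ± 0.55, adjusted p = 0.0207) and Tie1 (-3.67 ± 0.52, adjusted p = 0.0184). The VEGF receptors differed by -3.18 ± 0.34 for Kdr (adjusted p = 0.012), -3.08 ± 0.42 for Flt1 and -2.95 ± 0.49 for Flt4. Sox7 had the lowest adjusted p (-2.50 ± 0.22, adjusted p = 0.00899). The 8 genes not called were Cldn5 and Pcdh17 (-2.48 ± 0.55, adjusted p = 0.0557), which lay on the same side, and Nos3, Vwf, Plvap, Esm1, Lyve1 and Prox1. Among them Nos3 differed by -1.13 ± 0.34 (adjusted p = 0.109), Plvap by -0.23 ± 0.26 (adjusted p = 0.629) and Vwf by -0.63 ± 0.46 (adjusted p = 0.449). Esm1 (0.69) and Lyve1 (2.55) had positive differences. The comparisons share the white and the brown arrays with those above, so their values are not independent of each other.

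Ligands of these receptors were called in both directions. Of 16 ligand and sphingosine kinase genes 3 were called higher and 5 lower in marrow-derived than in white arrays (12.2% and 13.6% of all genes). Against brown arrays 4 were called higher and 5 lower (8.71% and 11.7% of all genes). In white against brown arrays 2 were called higher and 0 lower (3.87% and 5.34% of all genes). Angpt2, the angiopoietin that endothelial cells make themselves, had 9.95 and 10.92 in marrow-derived arrays, against 6.92 and 5.93 in white and 7.39 and 6.62 in brown arrays. It was 16.1-fold higher than in white arrays (adjusted p = 0.00729) and 10.8-fold higher than in brown arrays (adjusted p = 0.0125). Placental growth factor (Pgf), a ligand of Flt1, had 8.83 and 9.97 in marrow-derived arrays, against 6.70 and 6.04 in white and 6.39 and 5.80 in brown arrays. In the opposite direction, Vegfa, the chief ligand of Kdr and a product of adipocytes, had 7.43 and 6.42 in marrow-derived arrays, against 9.77 and 10.07 in white and 10.10 and 10.15 in brown arrays. Its difference was -2.99 ± 0.36 from white (adjusted p = 0.00662) and -3.20 ± 0.36 from brown (adjusted p = 0.00656). Vegfd, a ligand of Flt4, had 7.39 and 7.28 in marrow-derived arrays, against 10.17 and 10.68 in white and 8.15 and 8.79 in brown arrays (-3.10 ± 0.29 from white, adjusted p = 0.00427). The apelin gene Apln, the ligand of Aplnr and known from tip cells, had 7.0 and 9.01 in marrow-derived arrays, against 5.56 and 5.42 in white and 5.42 and 5.44 in brown arrays, and was called against white (adjusted p = 0.0399) and brown (adjusted p = 0.0444); it was chosen after its values were seen.

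**Figure D4:**
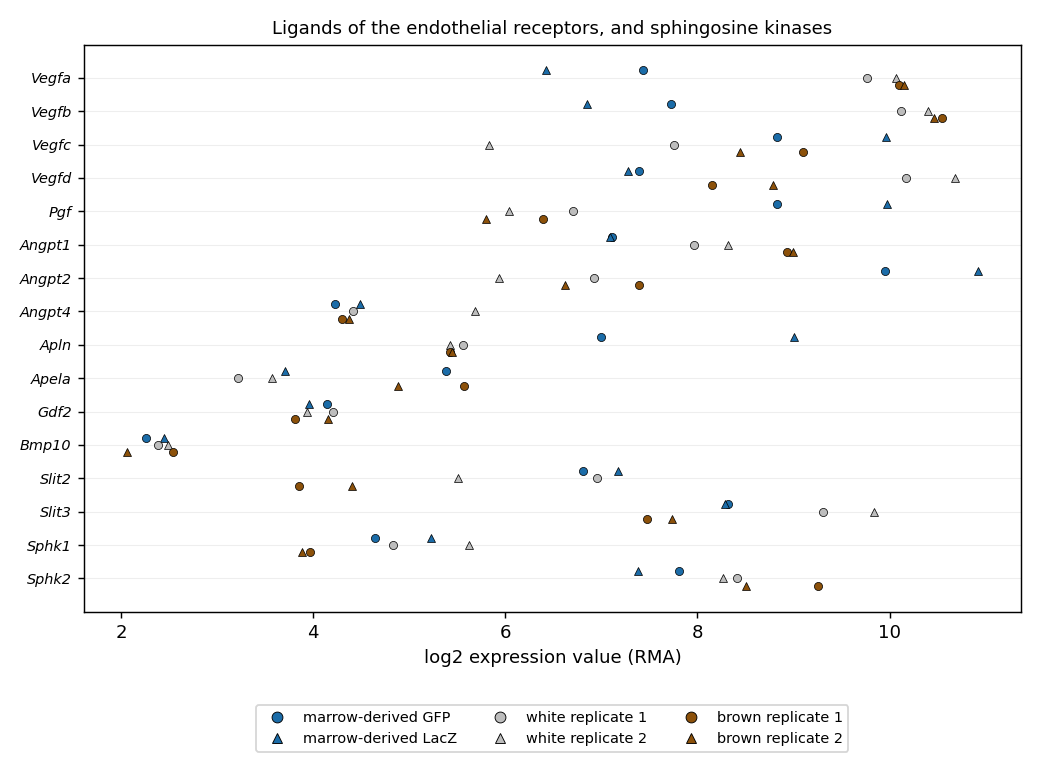
Log2 expression value of ligands of the endothelial receptors and of 2 sphingosine kinases on the 6 arrays (circles replicate 1 or GFP, triangles replicate 2 or LacZ). Angpt2, Pgf and Apln have both marrow-derived points right of all others, while Vegfa, Vegfb, Vegfd and Angpt1 have both marrow-derived points left of all others.

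Endothelial genes outside the list were also mostly higher than in white arrays. Of 38 such genes, also chosen with earlier results known, 30 were called higher and 0 lower against white arrays, with a median difference of 2.90. Over all genes 12.2% were called higher and 13.6% lower there. Against brown arrays 4 of the 38, or 10.5%, were called higher and 0 lower, with a median of 0.61. That share was near the 8.71% of all genes called higher against brown arrays. The Notch receptor Notch4 had 11.96 and 12.36 in marrow-derived arrays, against 7.72 and 7.34 in white and 10.43 and 9.78 in brown arrays, and was called against both (adjusted p = 0.00352 from white, adjusted p = 0.0121 from brown). Arhgef15, a guanine nucleotide exchange factor of endothelium, had 10.82 and 11.17 in marrow-derived arrays, against 7.18 and 5.94 in white and 10.53 and 10.28 in brown arrays. Ushbp1 and the adaptor gene She differed from white by 4.45 ± 0.48 and 3.90 ± 0.39 and from brown by 1.11 and 0.70. Of 9 microvascular genes of fat 5 were called higher than in white arrays. They included the capillary transcription factor partners Tcf15 (11.50 and 11.77 in marrow-derived against 7.72 and 6.56 in white arrays) and Meox2 (11.27 and 11.34 in marrow-derived against 7.88 and 6.87 in white arrays), and Gpihbp1, which anchors lipoprotein lipase on capillaries (13.24 and 13.35 in marrow-derived against 10.32 and 9.32 in white and 12.22 and 12.22 in brown arrays). The carbonic anhydrase Car4 of capillary endothelium had 12.45 and 12.53 in marrow-derived arrays, against 9.18 and 8.07 in white and 12.01 and 11.62 in brown arrays, and 0 of the 9 were called against brown arrays by limma (1 higher at an unadjusted p under 0.05).

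Arterial and venous genes were both among those called. Of 10 arterial genes 7 were called higher than in white arrays and 3 higher than in brown arrays (12.2% and 8.71% of all genes). The Notch ligand Dll4 had 9.50 and 10.61 in marrow-derived arrays, against 5.90 and 4.90 in white and 8.74 and 7.70 in brown arrays. The ephrin Efnb2, the connexin Gja4 and the Notch target Hey1, which is also one of the 38 endothelial genes, differed from white by 3.73 ± 0.46, 3.38 ± 0.29 and 3.12 ± 0.33. Of 7 venous genes 4 were called higher than in white and 3 higher than in brown arrays (12.2% and 8.71% of all genes). P-selectin (Selp), stored with von Willebrand factor in endothelium and platelets, had 9.42 and 9.95 in marrow-derived arrays, against 6.18 and 6.52 in white and 6.57 and 4.48 in brown arrays. Its white and brown values overlapped and its marrow-derived values stood 17.9-fold above brown (adjusted p = 0.0165). The venule chemokine receptor Ackr1 had 7.24 and 8.58 in marrow-derived arrays, against 5.68 and 4.65 in white and 5.55 and 4.88 in brown arrays (adjusted p = 0.0246 from white, adjusted p = 0.0315 from brown). Ephb4 and Nr2f2, of vein identity, differed from white by 3.25 ± 0.42 and 1.44 ± 0.22. Of 5 lymphatic genes beside Prox1, Lyve1 and Flt4, 0 were called against white arrays by limma (also 0 at an unadjusted p under 0.05). Those other than Pdpn lay between 2.21 and 3.69 on all 6 arrays, at or near background, so no level difference can be read from them. Pdpn was called higher than in brown arrays (8.98 and 8.51 in marrow-derived and 5.33 and 3.80 in brown arrays, with 9.67 and 9.16 in white arrays). It was chosen after its values were seen.

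The endothelial genes also differed between the 2 arrays of each group. The LacZ array was above the GFP array for 30 of the 32 genes, with Prox1 and Lyve1 as the exceptions, where 59.2% of all genes were higher on the LacZ array. White replicate 1 was above white replicate 2 for 26 of 32 genes (41.3% of all genes), with a median difference of 0.96. Sox7, Nos3, Plvap, Esm1, Lyve1 and Prox1 were the exceptions there. Brown replicate 1 was above brown replicate 2 for 26 of 32 genes (51.0% of all genes), by a median of 0.35. The mean over 9 adipocyte genes ran the other way within each group. It was 11.66 (GFP) and 10.71 (LacZ) in marrow-derived, 12.59 and 12.83 in white and 12.36 and 12.52 in brown arrays. Of these adipocyte genes, Pparg and Lep were higher on the LacZ array. The relation between the 2 lists was not tested. The 32 genes had 57 probe sets in all, and 16 genes had several. Of the 57 probe sets 50 were called higher and 0 lower against white arrays when every probe set was tested by itself. Of these 57 probe sets 10 were called higher against brown arrays and 41 were called lower in white than in brown arrays. Over all 33565 probe sets tested, 4019, 2754 and 1566 were called in these directions (12.0%, 8.20% and 4.67%). For Ccm2l, 1 of 3 probe sets stayed between 2.52 and 2.96 on all arrays, near background, and was not used.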

How the data were processed

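RNA from 6 sorted adipocyte samples (3 groups of 2) was hybridised to 1 array each. The deposited values are log2 expression per probe set, 1 column per array. The submitters' processing notes list RMA and Partek without versions or roles, and the log base was taken from the values (1.67 to 14.0, array medians 5.46 to 5.72). RMA equalizes the arrays and gives no detection calls, so values near 2 to 3.5 count as near background here. Of 43057 probe sets 33565 carried 1 gene symbol, 857 several and 8635 were unnamed here. Genes of the lists without a probe set were not analysed here.

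The 17720 genes, each read from its brightest probe set on average over the 6 arrays, were fitted with limma 3.58.1 in R 4.3.3: group means of all 6 arrays, contrasts, empirical Bayes (3 residual and 2.35 prior degrees of freedom), two-sided tests, Benjamini-Hochberg adjustment over all genes, threshold 0.05. Values after ± are standard errors, with n = 2 arrays per group, whose number limits the precision. The labels call samples biological replicates without naming separate animals, cultures or pools. The p-values therefore reflect only how these samples spread, and part of that may be technical. The 32 genes and all lists were chosen with earlier results of these data known. The genes named were all 32, up to 4 called genes of each other list with the largest difference from white, and Adipoq, Pparg, Ptprc, Adgre1, Csf1r, Pf4, Itga2b, Rgs5 and Pdgfrb. Acta2, Apln, Pdpn, Klf1, Thbd, Bmpr2 and Gja5 were chosen after their values were seen. Hba-a1 and Slc4a1 were named as other genes of the erythroid list. Alternatives covered the probe set, scaling, filters, arrays, replicate block and moderation.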

Additional observations from a re-analysis of the deposited data

How the results depend on the processing

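With 2 arrays per group, the calls depend on the shared estimate of the spread. No median of the 32 genes changed sign under any alternative run. In fits that left out 1 array, the 32 genes' calls ranged from 28 to 30 higher in marrow-derived against white, from 0 to 7 higher in marrow-derived against brown and from 0 to 25 lower in white against brown arrays. Their medians ranged from 3.14 to 4.09, from 0.67 to 1.18 and from -3.24 to -2.35. Over all genes, calls ranged from 899 to 2137 higher and 850 to 2144 lower (marrow-derived against white), 61 to 1405 and 239 to 1723 (marrow-derived against brown), and 0 to 1036 and 5 to 1215 (white against brown). Differences that turned sign with 1 array left out were those of Lyve1 from white (-1.98 to 1.82), of Rasip1 (-0.95 to 0.30), Clec14a (-0.12 to 1.02), Kdr (-0.05 to 0.60), Sox7 (-0.02 to 0.40) and Nos3 (-0.28 to 0.46) from brown, and of Prox1 between white and brown (-0.09 to 0.06).

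Without empirical Bayes moderation 2 of the 32 genes were called against white, 1 against brown and 0 in white against brown, with 254 and 301, 296 and 665, and 0 and 0 genes called higher and lower over all genes. At an unadjusted p under 0.05 the moderated fit gave 30, 11 and 27 of the 32. Using only the 4 arrays compared, 1355 and 1372 genes were called higher and lower against white, and 1036 higher in white against brown. Testing all probe sets one by one called 4019 and 4325, 2754 and 3423, and 1145 and 1566 probe sets, of which 50 higher, 10 higher and 41 lower belonged to the 32 genes. After centring each array on its median, 37.5% of the calls against brown were higher and 37.1% of those in white against brown, against 42.7% and 42.0%. The replicate numbers carry no stated meaning; deviations of same-numbered arrays correlated at 0.205, -0.004 and 0.277 over genes in the 3 comparisons. The replicate block called 3 of the 32 genes against brown in place of 5, 30 against white and 21 in white against brown; Pcdh17 (adjusted p = 0.0504) and Erg (0.0574) were the genes lost against brown. No alternative other than leaving out an array reversed a difference of the 32 genes. The cause of these changes was not tested.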

Other observations

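The erythropoietin receptor gene Epor, 1 of 5 measured genes of an erythroid list, had 8.32 and 8.50 in marrow-derived arrays, against 6.21 and 5.17 in white and 6.45 and 5.91 in brown arrays. It was called higher than in white arrays (limma, adjusted p = 0.00958) and than in brown arrays (adjusted p = 0.0195). Alas2, which starts heme synthesis in red cell precursors, had 7.37 and 8.43 in marrow-derived arrays, against 5.93 and 4.90 in white and 8.03 and 7.80 in brown arrays. By limma it was called higher than in white (adjusted p = 0.0195) but not against brown arrays (adjusted p = 0.983). On all 6 arrays Hba-a1 of this list lay between 2.89 and 3.19, near background, and Slc4a1 between 4.30 and 4.62. The red cell transcription factor Klf1 had 4.84 and 3.27 in marrow-derived arrays, against 4.07 and 4.32 in white and 3.66 and 3.59 in brown arrays and was chosen after its values were seen.

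Some endothelial genes did not follow the rest, and these were chosen after their values were seen. Thrombomodulin (Thbd) had 12.07 and 12.32 in marrow-derived arrays, against 12.30 and 12.74 in white and 11.96 and 12.17 in brown arrays (adjusted p = 0.345 against white). The BMP receptor Bmpr2 had 11.33 and 11.38 in marrow-derived arrays, against 10.99 and 11.21 in white and 11.36 and 11.17 in brown arrays, and the arterial connexin Gja5 lay between 3.74 and 4.49 on all 6 arrays.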
